A study of Mus musculus with 6 samples.

Results

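Described here are 10 genes that carry interferon signals in macrophages, namely the receptor chains Ifnar1, Ifnar2, Ifngr1 and Ifngr2, the transcription factors Irf1, Irf3, Irf5 and Irf8, and the kinases Tbk1 and Ikbke. They were taken by name from the 24394 gene symbols of the deposited tables, and all 10 were present and had enough signal to be tested. Bone marrow-derived macrophages (BMMs), cells grown from marrow with macrophage colony-stimulating factor (50 ng/ml, 7 days), came from C57BL/6 mice at postnatal day 28. The 3 control cultures and the 3 cultures given 5 cartilage fragments per macrophage for 24 h are the only groups, with no other difference given between them, and the fragments had been crushed from femoral head cartilage of the mice that gave the marrow. Neither the labels nor the methods say whether the 3 cultures of a group came from separate mice, so that the p-values below measure the spread between these libraries, which may be technical.

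Type I interferons bind a receptor made of Ifnar1 and Ifnar2, and interferon gamma binds one made of Ifngr1 and Ifngr2. Both receptors signal through Janus kinases and Stat proteins to the promoters of target genes. Upstream of interferon production, receptors that sense nucleic acids or bacterial products switch on Tbk1 and its relative Ikbke, which phosphorylate Irf3 and so start transcription of interferon beta. Irf5 drives inflammatory cytokine genes below Toll-like receptors, Irf1 is itself a target of interferon gamma, and Irf8 is a lineage factor of monocytes and macrophages. Macrophages carry this machinery at rest, and a low tonic level of type I interferon is known to keep part of it in use.

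In the main measure, the FPKM of the transcripts that carry the gene symbol (read pairs corrected for transcript length and library size), 0 of the 10 genes passed the test. In the second measure, read pairs counted over the whole gene, Ikbke rose 1.63-fold with cartilage fragments and Ifnar1 rose 1.36-fold, and the other 8 genes did not pass (2.79% of all tested genes passed). Both of these calls were lost when the variances of the read pairs were moderated without trend and robust estimation. In all 6 libraries 20 of 21 interferon genes were listed at 0. Ikbke, Ifnar1 and Tbk1 stand in the study's own list of changed genes, which was drawn up on these same libraries. Their direction here is therefore not independent evidence. The same holds for Socs3, Bst2, Adgre1, Cd14 and Col1a1, which are named below. In RNA from whole cultures, fewer cells of a type and less RNA per cell cannot be told apart.

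The promoters of the 3 genes with the lowest p in read pairs, and that of Irf1 as a known interferon target, are shown to place the measurements on the genome. Each window runs from 250 bases before to 50 bases after the start in RefSeq on GRCm38.p6 (the build named mm10 in the files), 5′ to 3′ on the strand of the gene. The elements were searched on both strands, the interferon gamma activated site (GAS, TTCNNNGAA), the core of the interferon-stimulated response element (ISRE, GAAANNGAAA) and the kappaB consensus, and matches are in capitals.
Ikbke, chr1:131279514-131279813, minus strand: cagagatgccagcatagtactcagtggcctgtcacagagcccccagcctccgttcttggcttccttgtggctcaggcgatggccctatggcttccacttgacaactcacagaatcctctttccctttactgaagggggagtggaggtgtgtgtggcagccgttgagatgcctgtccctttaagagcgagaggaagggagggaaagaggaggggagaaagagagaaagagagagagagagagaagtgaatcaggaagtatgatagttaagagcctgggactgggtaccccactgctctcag
Tbk1, chr10:121586745-121587044, minus strand: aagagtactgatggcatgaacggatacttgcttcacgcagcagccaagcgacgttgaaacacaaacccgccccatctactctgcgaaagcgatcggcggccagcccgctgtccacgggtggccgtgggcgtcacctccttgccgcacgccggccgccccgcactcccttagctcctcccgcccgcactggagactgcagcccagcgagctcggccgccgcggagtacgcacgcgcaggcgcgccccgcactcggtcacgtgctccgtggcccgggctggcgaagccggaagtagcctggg
Ifnar1, chr16:91484965-91485264, plus strand: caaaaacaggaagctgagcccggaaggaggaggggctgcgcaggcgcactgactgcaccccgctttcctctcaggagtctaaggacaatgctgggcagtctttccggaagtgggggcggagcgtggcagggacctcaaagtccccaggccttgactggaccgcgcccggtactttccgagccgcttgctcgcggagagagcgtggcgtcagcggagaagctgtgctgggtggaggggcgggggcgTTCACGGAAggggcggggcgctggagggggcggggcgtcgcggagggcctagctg
Irf1, chr11:53769764-53770063, plus strand: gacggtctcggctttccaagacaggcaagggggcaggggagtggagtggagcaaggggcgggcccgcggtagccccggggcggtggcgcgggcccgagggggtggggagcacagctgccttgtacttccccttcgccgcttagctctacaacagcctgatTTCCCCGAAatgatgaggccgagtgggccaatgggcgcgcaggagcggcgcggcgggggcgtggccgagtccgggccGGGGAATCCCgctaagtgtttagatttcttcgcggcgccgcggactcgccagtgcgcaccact
The windows of Ikbke and Tbk1 hold no match. The window of Ifnar1 holds a GAS whose first base lies at -5 from the start, and that of Irf1 holds a GAS at -90 and a kappaB match at -13. Over the 12 windows that RefSeq gives for the 10 genes, 4 hold a GAS (those of Ifnar1, Ifnar2, Irf1 and Irf8), 0 hold the ISRE core and 2 hold kappaB (Irf1 and Ifngr2). Of all 32851 promoter windows in the table, 8.3% hold a GAS, 3.44% the ISRE core and 4.51% kappaB. These matches are descriptions of the letters and carry no test.

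Each library rested on few read pairs, 735000 to 769000 in the controls and 692000 to 747000 with cartilage fragments, as estimated from the coverage that stands beside each FPKM. This is far below the reads per sample that the methods give, and the gap was not resolved, so that the counting intervals and the limits for a count of 0 hold only if the estimate does. The cultures carried the macrophage markers Csf1r, Adgre1, Cd68, Itgam and Lyz2, with a summed FPKM of the 8 markers of 29400 to 39200 in controls and 30000 to 40200 with fragments. Most of this sum was Lyz2, with means of 32510 and 32330 FPKM. Fcgr1 was low, at 7.96 and 11.3 FPKM. Mertk was listed at 0 FPKM in 2 libraries, although its gene held 550 read pairs in the controls and 498 with fragments. The 8 T and NK cell markers summed to between 2.35 and 8.0 FPKM, with Cd3d, Cd3e, Cd3g, Cd8a, Nkg7 and Prf1 listed at 0 in all libraries, and the 5 B cell markers to between 1.35 and 6.54. The 5 markers of plasmacytoid dendritic cells, a main interferon source in blood, summed to 87.1 to 93.0 FPKM in the controls and 111 to 146 with fragments, most of it Bst2, while Siglech had about 1 read pair per group and Ccr9 and Klk1 were listed at 0. The 9 chondrocyte markers summed to at most 4.22 FPKM in a control and at most 2.82 with fragments. Xist was present at 269 to 312 read pairs per library and Ddx3y, Eif2s3y, Kdm5d and Uty were listed at 0 in all 6, although the methods give male mice.

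The 2 measures sum different transcripts, since Cufflinks also assembled transcripts of its own, separately in each library. An assembled transcript in a gene takes read pairs away from the named transcript but carries no symbol, so that the FPKM under the symbol can drop in that library while the reads of the gene do not. All 10 genes had such a transcript in at least 1 library, in 25 of 60 gene and library pairs (14 control, 11 with fragments), and up to 72.4% of the read pairs of a gene lay on it. The standard deviation (SD) within groups of the log2 values had a median of 0.619 over the 10 genes in FPKM and of 0.137 in read pairs of the whole gene. For 4124 genes with a mean of at least 30 read pairs the same medians were 0.270 and 0.166. The FPKM under the symbol were the main comparison, and read pairs of the gene, divided by the library total and given below as scaled read pairs (per 1000000 read pairs of the library), the other measure.

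**Figure D1:**
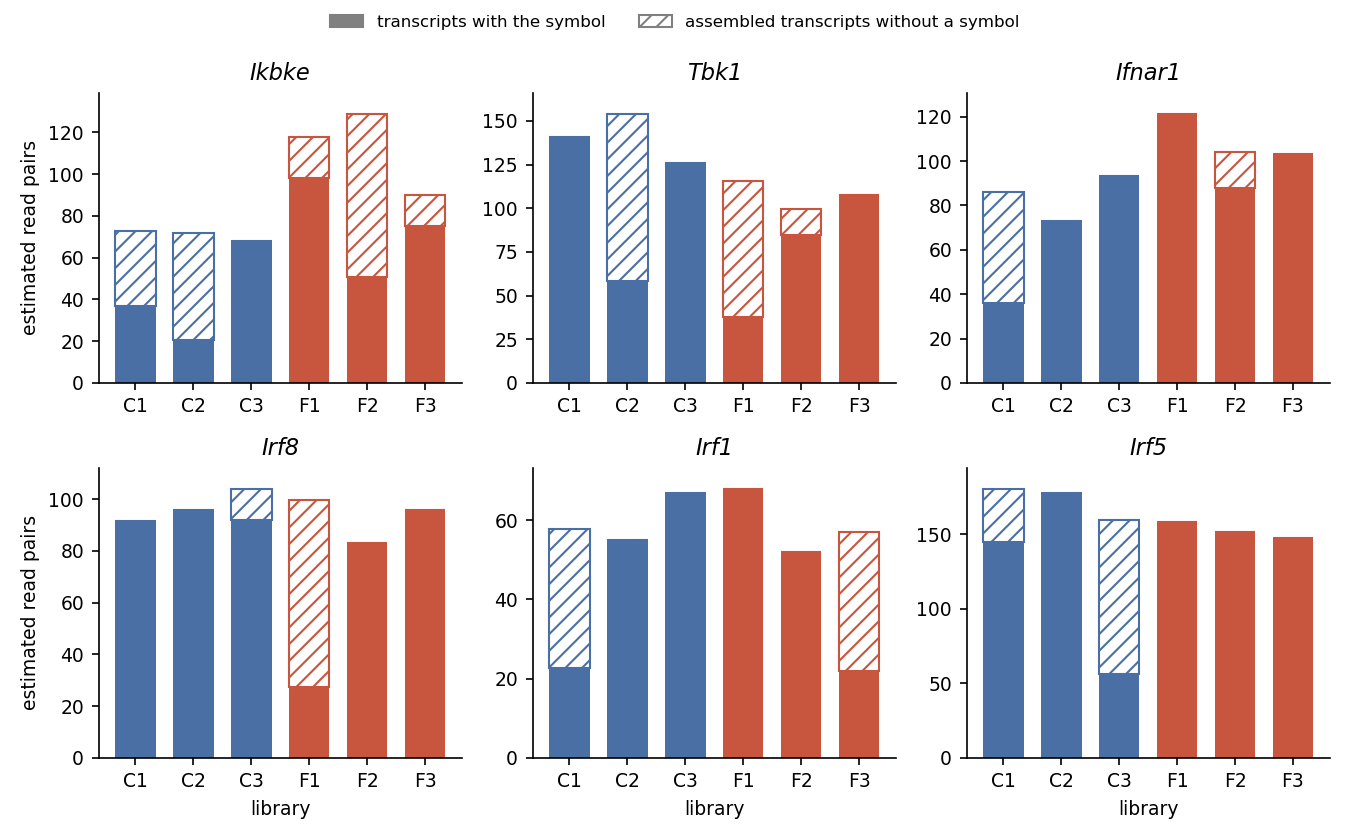
Estimated read pairs (vertical axis, from 0) of 6 genes in each library, controls (C1 to C3, blue) and cartilage fragments (F1 to F3, red), stacked by whether the transcript carries the symbol (solid) or was assembled without one (hatched). The solid part of Irf8 drops to 27.5 in F1 while the whole bar stands at 99.7, and the whole bars of Ikbke are higher in all 3 exposed libraries (89.8 to 128.7) than in the controls (67.8 to 72.8).

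Across all tested genes, limma on log2(FPKM + 0.1) called 15 of 10352 genes higher (0.145%) and 4 lower (0.0386%) at a Benjamini-Hochberg adjusted p under 0.05, or 0.184% in all, and 0 of the 10 genes (675 of all genes and 0 of the 10 had an unadjusted p under 0.05). The same test on read pairs called 182 of 10226 genes higher (1.78%) and 103 lower (1.01%), or 2.79% in all, and 2 of the 10, both higher (1236 of all genes and 4 of the 10 had an unadjusted p under 0.05). In FPKM the groups did not overlap for 1 of the 10 genes (Ifngr1), against 14.9% of all genes. In read pairs they did not overlap for 5 of the 10, with Ikbke, Ifnar1 and Ifnar2 higher and Tbk1 and Irf5 lower, against 16.8% of all genes. The median log2 fold change of the 10 genes was 0.215 in FPKM and 0.08 in read pairs, beside 0.02 and 0.0022 over all genes tested.

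**Figure D2:**
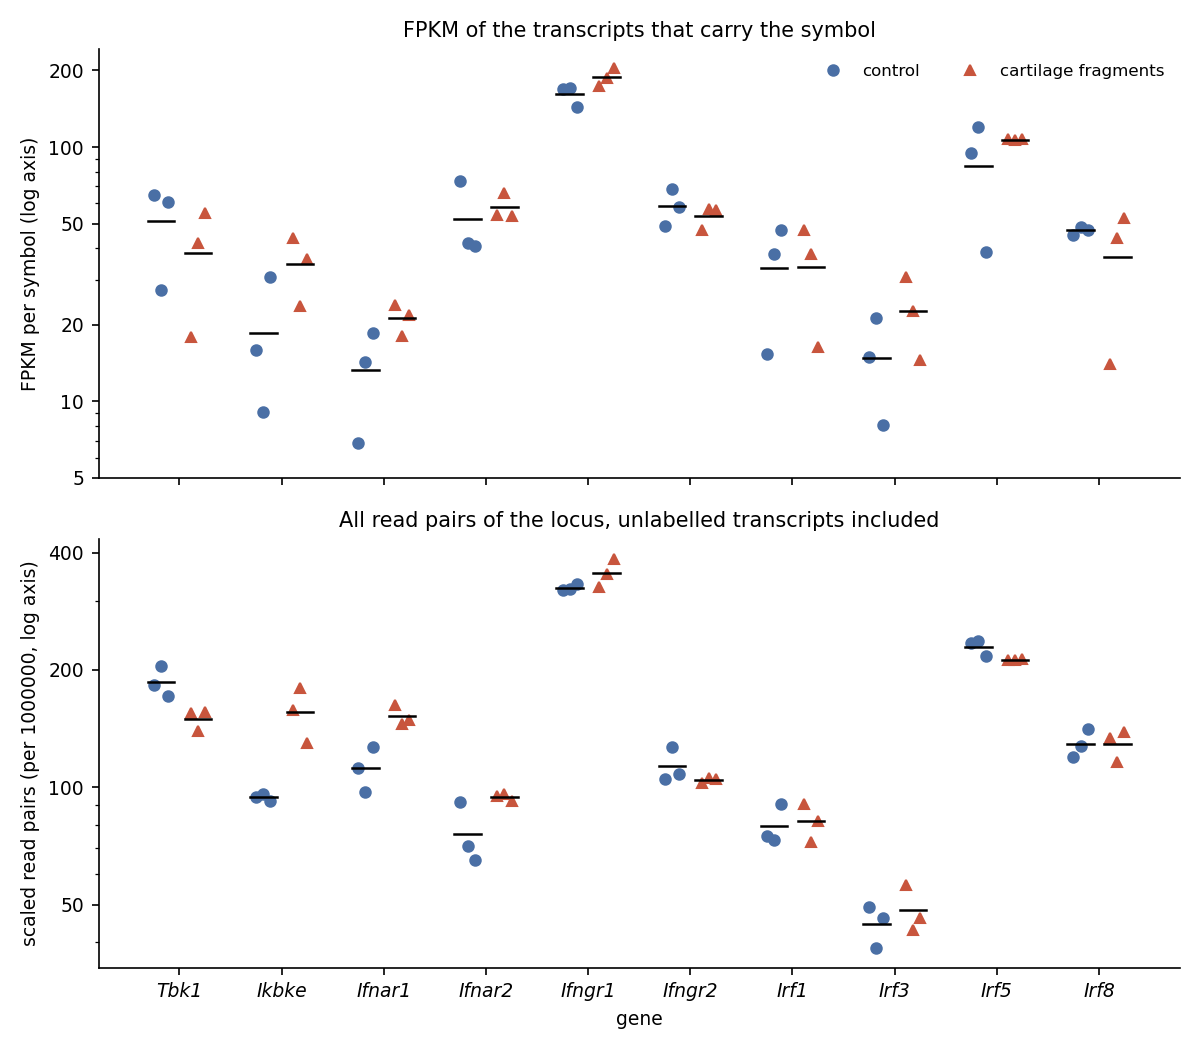
FPKM under the symbol (upper panel) and scaled read pairs of the whole gene, per 1000000 (lower panel), both on log axes, in the 3 control (circles) and the 3 exposed libraries (triangles), with bars at the group means. In the lower panel the exposed Ikbke values (129.7 to 179.8) and Ifnar1 values (145.4 to 162.2) stand above all controls, and the exposed Tbk1 values (139.5 to 155.7) below them.

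Ikbke encodes the inducible kinase IKK epsilon, which acts beside Tbk1 on Irf3 and Irf7. The gene lies at chr1:131254602-131279563. Scaled read pairs of the gene were 94.6, 96.0 and 92.3 in control replicates 1 to 3 and 157.6, 179.8 and 129.7 with cartilage fragments. The controls were almost level, and each exposed library stood above all of them. The log2 fold change was 0.71 ± 0.134 (SE, n = 3 and 3, adjusted p = 0.000508 from limma), and the summed read pairs, 336 against 212, gave a ratio of 1.66 with a 95% exact counting interval of 1.39 to 1.98. Ikbke passed with each library left out in turn (adjusted p 0.0004 to 0.029).

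FPKM under the symbol gave a less certain picture of the same gene. These were 15.9, 9.11 and 30.8 in the controls and 44.0, 23.8 and 36.2 with fragments. Control replicate 3 lay above exposed replicate 2, and the log2 fold change of 1.02 ± 0.487 did not pass (limma adjusted p = 0.778). In all, 5 of the 6 libraries held assembled transcripts at Ikbke, between 1 and 4 each, and 16.5% to 71.6% of its read pairs lay on them. Several of these transcripts cover only one end of the gene and stop or start near the same place, as in control replicates 1 and 2 and in exposed replicate 2. Ikbke also failed in read pairs when the variances were moderated without trend and robust estimation (adjusted p = 0.299) and when FPKM were summed over the whole gene (adjusted p = 0.561, log2 fold change 0.63).

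Tbk1, the constitutive kinase of the pair, lies at chr10:121546456-121586794. Its scaled read pairs were 183.0, 205.2 and 171.0 in the controls and 154.8, 139.5 and 155.7 with cartilage fragments. Each exposed library lay below each control. Its log2 fold change was -0.31 ± 0.113, and the limma adjusted p of 0.178 did not pass. The counting ratio of 323 to 420 read pairs was 0.804 with a 95% interval of 0.694 to 0.932, which covers counting error only. FPKM under the symbol were 64.9, 27.5 and 60.6 against 17.9, 41.9 and 55.3. The low values came from control replicate 2 and exposed replicate 1, where 62.2% and 67.5% of the read pairs of Tbk1 lay on assembled transcripts.

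The ratio of both kinases within a library does not depend on the scaling between libraries. The log2 ratio of Ikbke to Tbk1 in read pairs was -0.95, -1.1 and -0.89 in the controls and 0.03, 0.37 and -0.26 with fragments. The controls thus held about 0.508 read pairs of Ikbke for each of Tbk1, and the exposed libraries 1.05. In FPKM the log2 ratios were -2.03, -1.59 and -0.98 against 1.3, -0.82 and -0.61. The groups did not overlap in either measure, with a difference of 1.02 in read pairs and 1.49 in FPKM. The exact two-sided permutation test gave p = 0.1, the smallest that 3 against 3 allows, and 0.25 in read pairs and 0.5 in FPKM after adjustment over the 5 ratios tested, so that the design could not pass the threshold.

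Ifnar1 is the chain of the type I interferon receptor that binds Tyk2. Scaled read pairs of Ifnar1 were 112.0, 97.3 and 126.8 in the controls and 162.2, 145.4 and 149.1 with cartilage fragments. No exposed library reached down to the controls. At 0.45 ± 0.128 the log2 fold change passed narrowly (limma adjusted p = 0.0435), and the counting ratio was 1.36 (95% interval 1.15 to 1.61). The call held without control replicate 3 (adjusted p = 0.0194) and was lost without any other single library (0.104 to 0.283), while the log2 fold change stayed between 0.35 and 0.54. It was also lost without trend and robust moderation (0.482). In FPKM the values were 6.88, 14.3 and 18.6 against 23.9, 18.1 and 21.9, and the estimate of 0.78 ± 0.389 did not pass (adjusted p = 0.789). The lowest of these, control replicate 1, was the library where 58.2% of the read pairs lay on an assembled transcript.

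Ifnar2 is the high-affinity chain of the same receptor. Its scaled read pairs were 91.9, 70.6 and 65.0 in the controls and 94.8, 96.1 and 92.2 with fragments. The exposed libraries lay close together and just above control replicate 1. In read pairs the fold change, 0.33 ± 0.157 on the log2 scale, did not pass (limma adjusted p = 0.381), nor did that of 0.20 ± 0.26 in FPKM (adjusted p = 0.813). FPKM of Ifnar2 were 73.4, 41.9 and 40.8 against 54.0, 66.2 and 53.5.

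Ifnar2 is listed as a shorter and a longer transcript, of 1169 and 3045 bases, and the shorter one ends upstream of the end of the longer. The FPKM of the shorter transcript were 61.9, 41.9 and 40.8 in the controls and 30.9, 48.7 and 49.1 with cartilage fragments. The longer transcript had 11.5 FPKM in control replicate 1, was listed at 0 in control replicates 2 and 3, and had 23.1, 17.5 and 4.38 FPKM with fragments. In control replicates 2 and 3 an assembled transcript of 2921 or 2170 bases in the same region carried 22.9 and 18.9 read pairs. The zeros of the longer transcript therefore stood beside an assembled transcript in the same libraries, and no difference in the use of the transcripts was tested.

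Per length, Ifnar1 lay below Ifnar2 in all 6 libraries, with a log2 ratio of FPKM between -3.42 and -1.13. Not corrected for length, the read pairs of Ifnar1, whose transcript is 7013 bases long, were the more numerous in every library (log2 ratio 0.29 to 0.96). The log2 ratio of Ifnar1 to Ifnar2 overlapped between the groups in FPKM (difference 0.59, exact permutation p = 0.7, adjusted 0.7) and in read pairs (0.12, p = 0.6, adjusted 0.7).

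Ifnar2, Il10rb, Ifnar1 and Ifngr2 follow each other in this order on chromosome 16, from chr16:91372783 for Ifnar2 to position 91564007 for the end of Ifngr2. Il10rb encodes the chain shared by the receptors of interleukin-10 and interferon lambda. Its FPKM were 12.99, 31.4 and 118.9 in the controls and 113.6, 97.1 and 49.3 with fragments, whereas its scaled read pairs were 176.1, 170.6 and 195.2 against 185.5, 158.9 and 136.8. The wide spread in FPKM thus had no counterpart in read pairs, and the log2 fold change was 1.16 ± 0.848 in FPKM and -0.18 ± 0.117 in read pairs (limma adjusted p = 0.797 and 0.599).

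Ifngr1, the ligand-binding chain of the interferon gamma receptor, was the most abundant of the 10 genes per length. FPKM were 169.5, 171.0 and 143.5 in the controls and 173.8, 187.1 and 204.6 with cartilage fragments. All exposed libraries lay above the controls, by a small margin, and the log2 fold change of 0.23 ± 0.107 did not pass (limma adjusted p = 0.777). Control replicate 3, the lowest value, had 18.3% of its Ifngr1 read pairs on an assembled transcript. In scaled read pairs the groups overlapped, at 320.0, 322.3 and 332.1 against 327.1, 352.6 and 386.0, with an estimate of 0.13 ± 0.0834 (adjusted p = 0.604). With 732 and 764 read pairs Ifngr1 was also the most deeply sampled of the 10, and its counting ratio of 1.09 had an interval of 0.985 to 1.21.

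Ifngr2, the signalling chain of that receptor, was at 48.9, 68.2 and 58.3 FPKM in the controls and at 47.3, 57.1 and 56.6 with fragments. Scaled read pairs were 105.0, 126.6 and 108.5 against 102.7, 105.9 and 105.2. The groups overlapped in both measures, and the log2 fold change was -0.12 ± 0.164 in FPKM and -0.11 ± 0.136 in read pairs (limma adjusted p = 0.834 and 0.833). The log2 ratio of Ifngr1 to Ifngr2 was 1.79, 1.33 and 1.3 against 1.88, 1.71 and 1.85 in FPKM, which overlapped (difference 0.34, exact permutation p = 0.2, adjusted 0.5). In read pairs it was 1.61, 1.35 and 1.61 against 1.67, 1.74 and 1.88, higher in each exposed library (difference 0.24, exact permutation p = 0.1, adjusted 0.25).

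Irf1, a factor induced by interferon gamma that acts on promoters of antigen processing and guanylate-binding genes, did not pass in either measure. FPKM were 15.3, 38.1 and 47.1 in the controls and 47.3, 37.9 and 16.4 with cartilage fragments, and the low value in each group came with an assembled transcript that held 60.7% or 61.5% of the read pairs. Scaled read pairs were 75.2, 73.3 and 90.8 against 90.8, 72.5 and 82.1, the same range in both groups. The log2 fold change was 0.03 ± 0.582 in FPKM and 0.04 ± 0.159 in read pairs (limma adjusted p = 0.997 and 0.967), and the counting ratio of 1.02 had an interval of 0.826 to 1.27.

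For Irf8 the scaled read pairs were 119.3, 128.0 and 141.1 in the controls and 133.5, 115.8 and 138.4 with fragments, a log2 fold change of -0.003 ± 0.128 (limma adjusted p = 0.995). In FPKM the controls were at 45.3, 48.6 and 47.3 and the exposed libraries at 14.03, 44.0 and 52.6. Exposed replicate 1 alone stood apart, with 72.4% of its Irf8 read pairs on an assembled transcript, and the log2 fold change of -0.56 ± 0.511 became 0.03 without that library. The log2 ratio of Irf1 to Irf8 in read pairs lay between -0.8 and -0.64 in the controls and between -0.75 and -0.56 with fragments (difference 0.04, exact permutation p = 0.7, adjusted 0.7), and in FPKM the difference was 0.59 (p = 0.7, adjusted 0.7).

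Irf5 was at 94.7, 120.0 and 38.7 FPKM in the controls and at 107.6, 106.2 and 107.3 with cartilage fragments. Its scaled read pairs were 234.7, 237.3 and 217.0 against 212.3, 211.9 and 213.2. The exposed libraries were nearly equal and just below the controls in read pairs, while in FPKM they stood within the range of the controls. Its log2 fold change therefore had opposite signs, 0.49 ± 0.425 in FPKM and -0.11 ± 0.0978 in read pairs, and passed in neither (limma adjusted p = 0.797 and 0.735). Control replicate 3, the low FPKM value, had 64.6% of its Irf5 read pairs on an assembled transcript.

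Irf3, the substrate of Tbk1 that starts interferon beta transcription, was the most weakly sampled of the 10, with 29.0 to 41.8 read pairs per library. FPKM were 15.004, 21.3 and 8.04 in the controls and 30.9, 22.6 and 14.5 with fragments. The scaled read pairs were 49.2, 38.6 and 46.1 against 56.0, 43.2 and 46.1. Both measures overlapped, and the log2 fold change of 0.66 ± 0.446 in FPKM stood beside 0.12 ± 0.203 in read pairs (limma adjusted p = 0.797 and 0.891). At this depth the 95% counting interval of the ratio ran from 0.82 to 1.44. The log2 ratio of Irf5 to Irf3 differed by -0.17 in FPKM (exact permutation p = 0.6, adjusted 0.7) and by -0.23 in read pairs (p = 0.4, adjusted 0.667), with overlap in both.

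**Figure D3:**
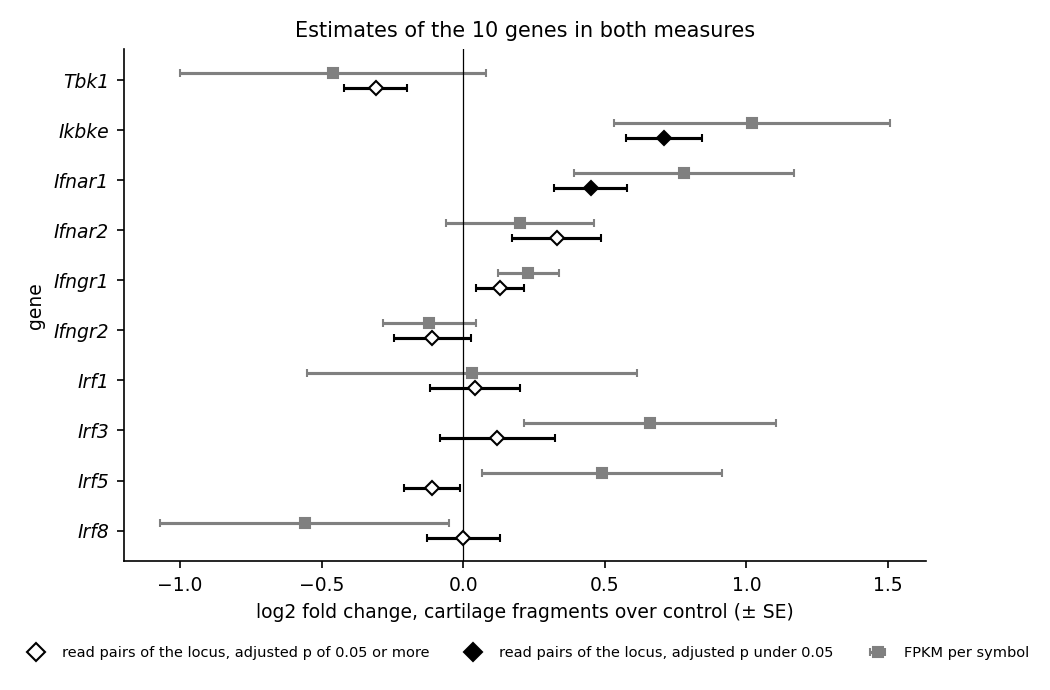
The log2 fold change, cartilage fragments over control, of the 10 genes from limma in FPKM under the symbol (squares) and in read pairs of the whole gene (diamonds, filled where the adjusted p is under 0.05), with standard errors (SE). Ikbke (0.71) and Ifnar1 (0.45) are the filled diamonds, and the bars in FPKM are the longer ones for all 10 genes.

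In order of mean FPKM per length over the 6 libraries, the genes ran from Ifngr1 (174.9) through Irf5 (95.8), Ifngr2 (56.1), Ifnar2 (55.0), Tbk1 (44.7), Irf8 (42.0), Irf1 (33.7), Ikbke (26.6) and Irf3 (18.7) to Ifnar1 (17.3). The range of Ifngr1, 143.5 to 204.6, lay above that of Irf5, 38.7 to 120.0. Every other neighbour in this order had ranges that overlapped. Ifngr2 and Ifnar2 changed places between the groups in FPKM under the symbol. The means were 58.5 and 52.0 FPKM in the controls and 53.7 and 57.9 with cartilage fragments. These means leave out assembled transcripts. Such transcripts held 43.3% and 39.6% of the Ifnar2 read pairs in control replicates 2 and 3, and 35.5% in exposed replicate 3. For Ifngr2 they held 13.3% in control replicate 1 and 14.6% in exposed replicate 1. The order with assembled transcripts included was not tested.

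The interferon genes themselves gave almost no signal. Of 21 genes, Ifnb1, 13 interferon alpha genes, Ifnab, Ifne, Ifnk, Ifng, Ifnl2 and Ifnl3 were listed at 0 in all 6 libraries, and Ifnz, named after its values were seen, had 1 read pair in 1 exposed library. A count of 0 allows up to 3 read pairs, or 3.9 to 4.33 scaled read pairs in these libraries, for counting error only. Interferon protein that may have been in the medium was not measured here.

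Among the other Irf genes, 3 of 5 were tested and 0 passed in either measure. Irf9, a DNA-binding subunit of the complex that type I interferon activates, had a log2 fold change of 0.23 ± 0.277 in FPKM and 0.22 ± 0.255 in read pairs (limma adjusted p = 0.809 and 0.811). Irf2, a competitor of Irf1, was listed at 0 in 1 library, and its log2 fold change of 2.63 ± 2.2 in FPKM stood beside -0.05 ± 0.191 in read pairs (adjusted p = 0.797 and 0.957).

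Of the 6 tested genes for proteins next to the receptors, 0 passed in either measure, and the groups did not overlap for 2 in read pairs, both higher (16.8% of all genes did not overlap). Ifnlr1, the other chain of the interferon lambda receptor, was listed at 0 throughout.

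Partners of Tbk1 and Ikbke passed in 0 of 9 cases in either measure, and in read pairs 2 were higher and 1 lower without overlap (16.8% of all genes in either direction). Ikbkb, the canonical IKK beta kinase, had 117.3 ± 4.67 scaled read pairs in the controls and 96.8 ± 4.28 with fragments. Its log2 fold change was -0.28 ± 0.136 (limma adjusted p = 0.406). Here and below, ± after a group mean is the SD, and ± after a log2 fold change is the SE. Traf3, which links sensors to Tbk1, had an estimate of -0.22 ± 0.233 in read pairs (adjusted p = 0.792) and, with 1 library listed at 0, of -2.01 ± 1.65 in FPKM (adjusted p = 0.797).

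Of 17 sensors and adaptors upstream of Tbk1, 1 passed in read pairs (2.79% of all genes) and 0 in FPKM, with medians on the log2 scale of 0.04 and -0.01. The gene that fell was Tlr7, a sensor of single-stranded RNA in endosomes that signals through Myd88. Whether its fall bears on Tbk1 was not tested. Tlr7 had 239.0 ± 21.5 scaled read pairs in the controls and 154.8 ± 16.6 with cartilage fragments, a log2 fold change of -0.63 ± 0.109 (limma adjusted p = 0.000151), and in FPKM the estimate was -0.66 ± 0.29 (adjusted p = 0.777). Without overlap in read pairs 0 of the 17 were higher and 3 were lower, a share near the 16.8% of all genes in either direction.

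Among 12 brakes on the pathway, Socs3 and Tnfaip3 rose in read pairs (2.79% of all genes passed) and 0 passed in FPKM. Socs3, an inhibitor of Janus kinase signalling that serves mainly receptors of the interleukin-6 family, went from 10.7 ± 3.73 to 41.6 ± 4.91 scaled read pairs, a log2 fold change of 1.94 ± 0.298 (limma adjusted p = 1.71e-05). Tnfaip3, the ubiquitin-editing protein A20 that restrains NF-kappaB, went from 65.9 ± 9.19 to 119.4 ± 9.36, a log2 fold change of 0.86 ± 0.153 (adjusted p = 0.000207). In FPKM, Socs3 gave 1.98 ± 0.288 (adjusted p = 0.139) and Tnfaip3 -0.20 ± 0.303 (adjusted p = 0.841). Socs3 also stands in the study's own list of higher genes from these same libraries. Both genes are known targets of inflammatory signals other than interferon, and the cause of their rise here was not tested. Socs1, an inhibitor of interferon receptor signalling in this list, had at most 3.98 read pairs in all exposed libraries together.

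Targets of type I interferon, of which 8 of 22 also stand in another list, passed in 0 of 20 tested cases in either measure. Their median log2 fold change was 0.42 in FPKM and 0.40 in read pairs, beside medians of 0.02 and 0.0022 over all tested genes. In read pairs 18 of the 20 estimates were above 0, against 5147 of 10226 over all genes. The largest, of Isg15 (1.49), Mx1 (1.26), Rsad2 (1.12) and Ifit3 (1.02), rested on at most 19.96 read pairs per group. Of the better sampled genes, Oasl2 and Bst2 gave 0.69 and 0.57, and Ddx58 and Ifih1 gave 0.03 and 0.05. The groups did not overlap for 6, all higher, in read pairs (16.8% of all genes). Bst2, a membrane protein that tethers virus particles and also a marker of plasmacytoid dendritic cells, had 85.6 ± 3.88 FPKM in the controls and 129.0 ± 17.7 with cartilage fragments, a log2 fold change of 0.58 ± 0.126 (limma adjusted p = 0.348). Oasl2 had 10.1 ± 0.838 and 16.6 ± 3.02 FPKM, or 0.70 ± 0.193 on the log2 scale (adjusted p = 0.526). In read pairs both missed the threshold more narrowly, with adjusted p of 0.0957 and 0.0959. The study, on these same libraries, lists Bst2 among its genes that were higher with cartilage fragments.

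Of 12 tested targets of interferon gamma, Irf1 or Irf8, 1 passed in read pairs (2.79% of all genes) and 0 in FPKM. B2m, the light chain of class I molecules, rose from 1598 ± 44.6 to 1779 ± 31.8 scaled read pairs, a log2 fold change of 0.15 ± 0.0424 (limma adjusted p = 0.0314), and in FPKM the estimate was 0.16 ± 0.0344 (adjusted p = 0.342). The call in read pairs was lost without control replicate 1 or 3 and without exposed replicate 1 or 2. Without trend and robust moderation, Tlr7, Socs3, Tnfaip3 and B2m did not pass in read pairs. The groups did not overlap in read pairs for 2 genes that were higher and 1 that was lower (16.8% of all genes in either direction). The lower one, Ciita, the activator of class II genes, named after its values were seen, had 15.5 ± 1.85 scaled read pairs in the controls and 7.81 ± 3.96 with fragments, a log2 fold change of -1.03 ± 0.411 that did not pass (limma adjusted p = 0.253). Cxcl9, Nos2 and Iigp1, which interferon gamma induces strongly, were listed at 0 in all 6 libraries.

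**Figure D4:**
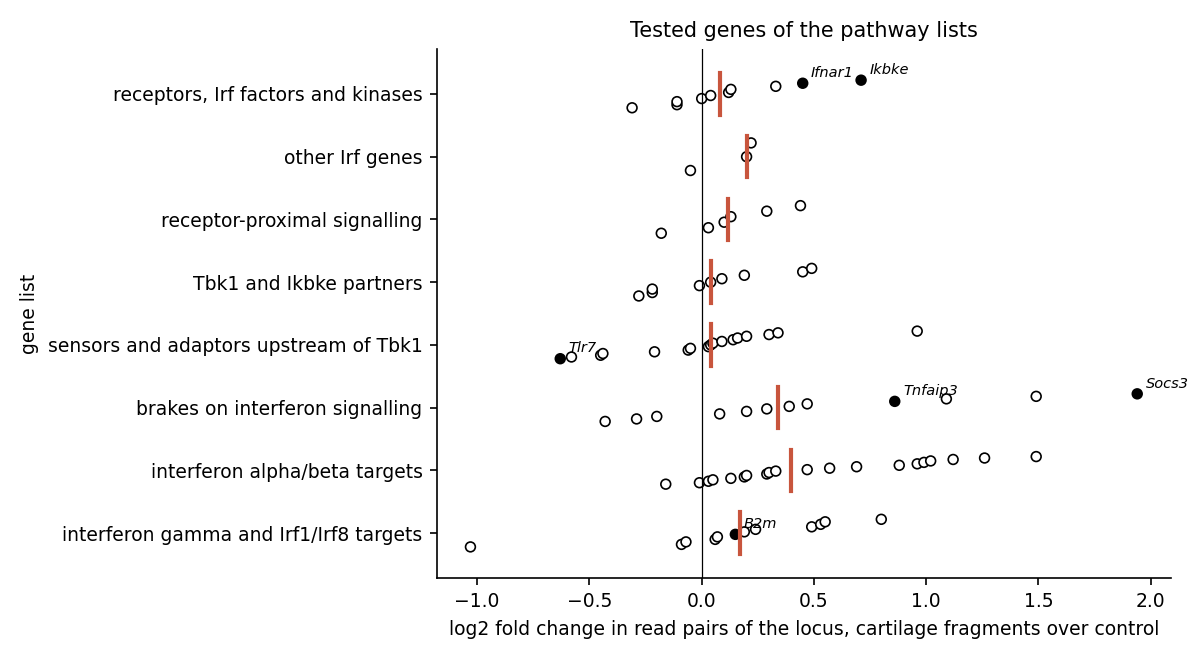
The log2 fold change in read pairs of the whole gene for the tested genes of 8 lists (circles, spread vertically for legibility, filled where the adjusted p is under 0.05), with the median of each list as a red bar. The filled circles are Ikbke and Ifnar1, Tlr7 (-0.63), Socs3 (1.94), Tnfaip3 (0.86) and B2m (0.15), and the median of the targets of type I interferon stands at 0.40.

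Some markers of cell types also passed the test in read pairs, and 0 passed in FPKM. In read pairs 3 of 8 macrophage markers rose, with log2 fold changes of 0.58 for Adgre1, 0.64 for Cd14 and 0.26 for Itgam. Of 3 tested fibroblast markers 1 fell, Col1a1 by 0.72. In FPKM the limma adjusted p of these genes were 0.62, 0.761, 0.348 and 0.195, in the same order. How the calls in read pairs fare without trend and robust moderation is not reported here. Of all genes 1.78% were called higher and 1.01% lower in read pairs. The summed FPKM of the 7 fibroblast markers were 80.8 to 96.7 in the controls and 48.6 to 58.2 with cartilage fragments. Most of this sum was Col1a1, with means of 79.0 and 47.8 FPKM. Col3a1 had 3.15 and 1.74 FPKM, and Dcn went the other way, with 2.79 and 3.52. The 6 neutrophil markers found in the tables summed to 731 to 914 and 731 to 1070 FPKM, with 0 of 4 tested markers past the threshold. Most of this sum was S100a8, with means of 288.6 and 377.5 FPKM, and S100a9, with 442.9 and 391.1. Ngp had 62.8 and 62.4 FPKM and Camp 13.7 and 22.8. Mpo had 0.756 and 0.191 FPKM, and Elane 0.627 and 0. The part of these differences in the values of Ikbke, Ifnar1 and the other genes was not tested.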

How the data were processed

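RNA of 6 libraries (3 control, 3 with cartilage fragments, grouped by the sample titles) was sequenced from poly(A) RNA with a stranded kit as paired-end reads. According to the labels and the methods, the authors used TopHat with Bowtie for alignment to mm10 and then ran Cufflinks per library. The methods also name Cuffdiff, which was not run here, so that the study's list of changed genes and the calls above come from different tests. Versions were not given in the sources used here. Each deposited FPKM belongs to 1 transcript, as Cufflinks gave it, and the deposited coverage is the signal of reads per base that stands beside each FPKM. TMM, which the methods name, could not be recognised in the values.

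FPKM were summed over transcripts with the same symbol. The test covered genes whose 6 libraries averaged 1 FPKM or more. It was run in limma 3.58.1 (R 4.3.3) on log2(FPKM + 0.1), by lmFit and eBayes with trend and robust, two-sided and unpaired, with Benjamini-Hochberg adjustment over all tested genes and a threshold of 0.05. Fold changes are on this scale, which understates those of low genes. Read pairs were estimated from coverage and length for transcripts of at least 300 bases. The read length and a length offset were chosen in each library to bring the estimates closest to whole numbers. With that choice, 95.6% to 96.7% of the values up to 8 lay within 0.1 of a whole number. This share is therefore not a separate check, and it covers only longer transcripts of genes with a single transcript. The estimated read pairs were summed over a gene, assembled transcripts included, and divided by the library total. They were tested in the same way on the log2 scale after 0.5 was added. Counting intervals are exact binomial ones at 95% and cover counting error only, since reads without molecular identifiers are not independent molecules. Ratios of gene pairs were compared with an exact permutation test. Replicates of a group differed by more than sampling noise, and each was counted as 1 sample. Tables were made in Python 3.11.15 (pandas 2.3.3), exact tests with scipy 1.17.1 and plots with matplotlib 3.10.9. Promoter windows came from RefSeq. The fit in read pairs was tested on simulated read pairs per gene, without assembled transcripts. The fit in FPKM was not tested in this way.

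The genes and the lists were chosen with earlier results of these data known. Named are the 10 genes, Il10rb, and from each pathway list the tested genes past the threshold in either measure, or else the 2 with the smallest p in FPKM. Some genes that this rule names are not reported here. Any other gene was picked after its values were known. The alternatives varied the pseudocount, filter, scaling, moderation, unit, pairing and set of libraries.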

Additional observations from a re-analysis of the deposited data

How the results depend on the processing

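In FPKM under the symbol, 0 of the 10 genes passed in 15 of the 16 alternatives, and 2 (Ikbke and Ifnar1) passed in scaled read pairs. The number of all genes called higher and lower, 15 and 4 as reported, was 8 and 0 with a pseudocount of 0.01, 11 and 1 at a mean of at least 5 FPKM, 17 and 10 without trend and robust moderation, 182 and 103 in scaled read pairs, and 0 to 18 and 0 to 3 with single libraries left out. With the replicate block it was 0 and 0, with 0 of the 10 genes. Same-numbered libraries correlated by at most 0.032 in their deviations from the group means and not every library correlated best with its own number, so that the numbers were not taken as pairs. Directions turned for Irf1 at equal totals (-0.0038), under quantile scaling (-0.019) and with single libraries left out (-0.454 to 0.486), for Irf5 in scaled read pairs (-0.11), and with single libraries left out for Ifngr2 (-0.237 to 0.0021), Irf8 (-0.918 to 0.031) and Tbk1 (-0.855 to 0.014). None of these values passed the test.

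In read pairs, against 182 and 103 genes, the alternatives chosen after seeing the data gave 10 and 3 with labelled transcripts only, 34 and 8 with FPKM summed over the gene, and 15 and 4 without trend and robust moderation, with 0 of the 10 genes passing in each of these, and 107 to 166 and 53 to 88 with single libraries left out, with 1 to 2 of the 10. Tlr7, Socs3, Tnfaip3 and B2m lost their calls without trend and robust moderation. With the replicate block 1 of the 10 genes passed in read pairs, Ikbke, and the adjusted p of Ifnar1 was 0.0644. Directions turned for Irf5 with labelled transcripts only (0.492), for Irf3 (-0.123), Irf8 (0.0044) and Ifngr2 (0.017) in FPKM summed over the gene, for Irf8 with 5 read pairs added (0.00018), and with single libraries left out for Irf1 (-0.041 to 0.133) and Irf8 (-0.06 to 0.074). The differences in log2 ratio in FPKM turned sign with single libraries left out for Ifnar1 over Ifnar2 (-0.11 to 1.04), Irf1 over Irf8 (-0.31 to 1.41) and Irf5 over Irf3 (-0.46 to 0.09), and kept it for Ikbke over Tbk1 (0.82 to 1.88) and Ifngr1 over Ifngr2 (0.25 to 0.5). The cause was not tested for any of these, apart from labelled transcripts only, which leaves out the read pairs of assembled ones by construction. Reference transcripts only is the same as the FPKM under the symbol, since assembled transcripts carry none, and was not run. At the estimated 29.0 to 267.2 read pairs per gene and library, counting error would limit every value.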
